A study of Sus scrofa with 24 samples.

Results

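The ileal mucosa of pigs with post-natal growth retardation (PGR) was compared with that of healthy pigs in 12 of the 24 samples of the series. The 6 PGR and 6 healthy samples were taken as ileal by their titles, and the remaining 12 samples are jejunal by title. All pigs were 42 d old Duroc × Landrace × Large Yorkshire crossbreds of one paternal origin, matched by litter and fed the same commercial feed. No pig was treated, and a PGR pig was defined by a body weight well below the average, without visible disease or injury. The mRNA of 26 target genes was measured by quantitative RT-PCR in scraped mucosa, and 25 of the 26 are described here. TLR4 was left out because its ileal Ct equalled the jejunal Ct in 12 of 12 pigs.

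The small intestine senses nutrients through enteroendocrine cells, which release peptides and serotonin that act on motility, secretion and food intake. Growth hormone and insulin-like growth factor signalling, together with the Akt-mTOR pathway, couples hormones and nutrients to protein synthesis and renewal of the epithelium. The ileum is also rich in lymphoid tissue, so its mucosa carries cytokine transcripts beside epithelial ones. Scraped mucosa mixes these cells, and fewer cells of a type and less mRNA per cell cannot be told apart in any value below.

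The tissue label was checked first. None of the 25 genes is a defining marker of the ileum, so the label could not be checked against one. The tissue field named the jejunum for 6 of the 12 samples whose titles say ileum, those of all 6 healthy pigs, and the titles were followed. In the 3 healthy pigs with both values, the level of GHRL was −6.59 on the log2 scale in the samples titled ileal relative to those titled jejunal. For CCK this difference was −3.43 (n = 3). In PGR pigs the differences were −5.60 for GHRL (n = 4) and −2.74 for CCK (n = 5). None of these tissue differences was tested.

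Several pigs and readings stood apart. Levels were given as ratios to β-actin with some cells left blank. Of the 300 ileal values 37 were blank, 18 in healthy and 19 in PGR pigs. PGR pig 3 had 9 blank values, healthy pig 4 had 8 and healthy pig 3 had 5. The β-actin readings allowed 35 of the blank values to be recomputed. Of these, 25 lay above and 9 lay below every kept value of the same gene and group. The blank values were therefore nearly all at the ends of their groups, and the rule behind them is not given in the sources used here.

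The β-actin readings also differed between the groups. The PCR cycle of the threshold crossing, the Ct, is lower where there is more template. The β-actin Ct behind each level formed 4 sets, each shared by its own target genes. In the set of 11 genes that holds the Akt-mTOR and antioxidant genes, MyD88, IL-6, IL-10 and the IL-4 assay, the mean was 12.8 ± 0.247 cycles in PGR pigs and 13.3 ± 0.218 cycles in healthy pigs (SD, n = 6 each; two-sided exact permutation p = 0.00216). All PGR pigs read lower than all healthy pigs in that set. In the set of 11 genes that holds most hormone-related genes, the difference was −0.701 cycles (exact p = 0.00866), and it was −0.353 cycles without healthy pig 4 (exact p = 0.00866). Healthy pig 4 read 15.6 cycles there, far from the other healthy pigs. GLP-1R had readings of its own, which were lower in PGR pigs by a difference of −0.464 cycles (exact p = 0.00794, n = 5 each). The readings shared by IL-8 and IL-1β were higher in PGR pigs, by 0.425 cycles (exact p = 0.392, n = 6 each), or 0.788 cycles without healthy pig 4 (exact p = 0.0541). A ratio to β-actin therefore holds a group difference of the reference for most genes. The paper, in contrast, reports that β-actin expression did not change between the groups, without showing the data. The part of the reference difference in the results was not tested. The accounts below give the change without a reference where the direction turned.

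The abundance of the genes was described first, in healthy pigs, as the level per 1000 of β-actin. Primer efficiency was not measured in the files and products differ in length, so the order between genes is approximate. Akt, a kinase downstream of insulin and growth factor receptors, had the highest level, 11.2 ± 0.884 (SD, n = 6). The neutrophil chemokine IL-8 followed at 10.2 ± 4.15 (SD, n = 5), and the inhibitory peptide SS (somatostatin) at 6.39 ± 3.93 (SD, n = 5). These 3 genes overlapped in their ranges over pigs. The IL-4 assay, whose accession belongs to the interleukin 4 receptor in RefSeq, read 5.41 ± 0.586 (SD, n = 6). MyD88, 4EBP1 and P70S6K lay just below, at 4.93, 4.77 and 4.71.

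A gap of 2.01-fold without overlap then separated P70S6K from mTOR. From mTOR, at 2.34 ± 0.190 (SD, n = 6), down to GHR, at 0.0918 ± 0.0147 (SD, n = 5), each gene overlapped with the next. That stretch held CCK at 2.31, IGF-1 at 2.13, IGF-1R at 2.12, IFNγ at 2.05, INSR at 1.62, HO-1 at 1.19 and NQO1 at 0.832. Below them came IL-10 at 0.646, Nrf2 at 0.470, SERT at 0.414, 5-HT4R at 0.318, GLP-1R at 0.230 and IL-1β at 0.198.

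The lowest levels were set apart. IL-6 lay 2.26-fold below GHR, at 0.0407 ± 0.00702 (SD, n = 5), and did not overlap with it. The appetite peptides GHRL (ghrelin) and AgRP were lowest, at 0.00947 ± 0.00651 and 0.00617 ± 0.00129 (SD, n = 4 each). GHRL lay 4.30-fold below IL-6 without overlap, whereas GHRL and AgRP overlapped. Of 24 neighbouring pairs, 21 overlapped and 3 did not, over a span of 1811-fold from Akt to AgRP. With the blank values filled, the healthy level of AgRP was 5.48-fold higher, at 0.0338, and overlapped with IL-6 and GHRL; with healthy pig 4 also left out it was 2.33-fold higher. With the blank values filled and healthy pig 4 kept, GHR and IL-6 were the 1 neighbouring pair without overlap, and the span was 814-fold. Without healthy pig 4 the filled span was 891-fold, and P70S6K (4.25 to 5.10) and mTOR (2.13 to 2.62) did not overlap either.

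PGR pigs showed nearly the same order. Of the 25 genes, 23 were within 2 places of their healthy rank. The exceptions were SERT, which moved from place 18 to place 21, and IGF-1R, which moved from place 11 to place 8. By mean Ct over all healthy pigs, 23 genes were within 2 places, and IL-8 moved from place 2 to place 6 and SS from place 3 to place 7. The levels of different genes were partly read against different β-actin readings.

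**Figure D1:**
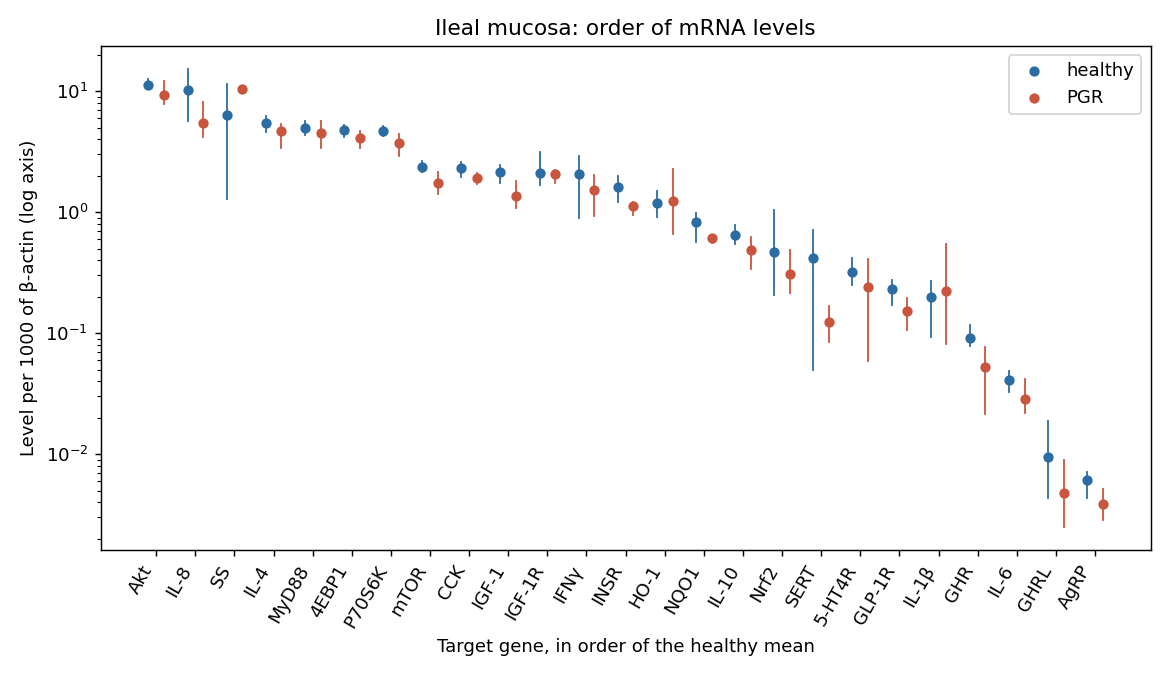
Level of each target gene per 1000 of β-actin in ileal mucosa, on a log axis, for healthy and PGR pigs. Points are group means and lines run from the lowest to the highest pig with a deposited value; the levels span 1811-fold in healthy pigs, with GHRL and AgRP lowest.

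The change in PGR pigs was then read as the level relative to the healthy mean, which is 1 for each gene. In the accounts of single genes, the p beside a log2 change and its SE is that of the exact test on the mean levels relative to β-actin. For 22 of 25 genes (88%) the PGR mean lay under the healthy mean, and the median relative level was 0.745, a median log2 change of −0.43. At an unadjusted p under 0.05, PGR pigs had lower levels of 13 genes (52%) and a higher level of 1 gene, SS (4%), by two-sided exact permutation tests. After Benjamini-Hochberg adjustment over the 52 gene and tissue comparisons, 0 of 25 genes (0%) passed, against 14 (56%) at the unadjusted threshold, and the smallest adjusted p was 0.0728 (exact test). With limma, 1 gene passed the adjustment, IGF-1 (adjusted p = 0.0340). In the jejunal mucosa, 13 of 26 genes (50%) passed the unadjusted threshold.

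These counts depended on the reference, on the blank values and on single pigs. Below, "on Ct" means without a reference and with blank values left out. "With every Ct" means a setting chosen after the values were seen, which drops the reference and also adds the blank values. Neither setting corrects for the amount of template in a sample. A value above 1 there does not by itself show a higher mRNA level in PGR pigs. On Ct, 11 of 25 means were below the healthy mean, the median log2 change was 0.040, and 7 genes passed the unadjusted threshold, 2 lower and 5 higher in PGR pigs. With every Ct, 7 of 25 means were below the healthy mean, the median log2 change was 0.20, and 5 genes (20%) passed, all higher in PGR pigs. Of the 13 genes lower relative to β-actin, 7 stayed below 1 on Ct, INSR and IL-8 with an unadjusted exact p under 0.05, and 6 were above 1. With every Ct, 6 of the 13 stayed below 1, none with such a p, and 7 were above 1. With the mean target Ct as reference, 8 of the 13 stayed below 1, of which 1, IL-8, passed. That reference removes any change shared by all genes of the panel, so its counts cannot show one. The count of 14 was 8 without PGR pig 2 and 9 without PGR pig 1. With same-numbered pigs as blocks, limma called 8 genes, all among the 14, and INSR, CCK, SS, SERT, IL-8 and NQO1 were not called.

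Across functions, the lowest median relative level was that of the serotonin genes, 0.524 over 2 genes, followed by the appetite peptides, 0.566 over 2 genes. The growth axis followed at 0.668 over 4 genes and the pro-inflammatory cytokines at 0.704 over 3 genes. The antioxidant genes stood at 0.733 over 3 genes and the regulatory and T cell group, IL-10, IFNγ and the IL-4 assay, at 0.759 over 3 genes. The Akt-mTOR genes stood at 0.817 over 4 genes and the adaptor MyD88 at 0.906. The satiety genes had a median of 0.828 over 3 genes that lay on both sides of 1, from GLP-1R at 0.668 to SS at 1.63. The median over all 25 genes was 0.745. These medians carry no test, and their order depended on the reference and on the blank values. With the blank values filled, IGF-1, GHR, IGF-1R and INSR lay at 0.462, 0.329, 0.611 and 0.561. All 4 then included a blank value of healthy pig 4. SERT and 5-HT4R lay at 0.381 and 0.828, and AgRP and GHRL at 0.114 and 1.18. IL-8, IL-1β and IL-6 lay at 0.657, 1.13 and 1.75. On Ct, the appetite peptides had the lowest median, 0.746, followed by the serotonin genes at 0.805, the pro-inflammatory cytokines at 0.839 and the growth axis at 0.841. The medians of all other roles were above 1 there, with the Akt-mTOR genes at 1.19 and MyD88 at 1.30. With every Ct, the pro-inflammatory cytokines were lowest at 0.839, then the serotonin genes at 0.937 and the growth axis at 0.961.

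**Figure D2:**
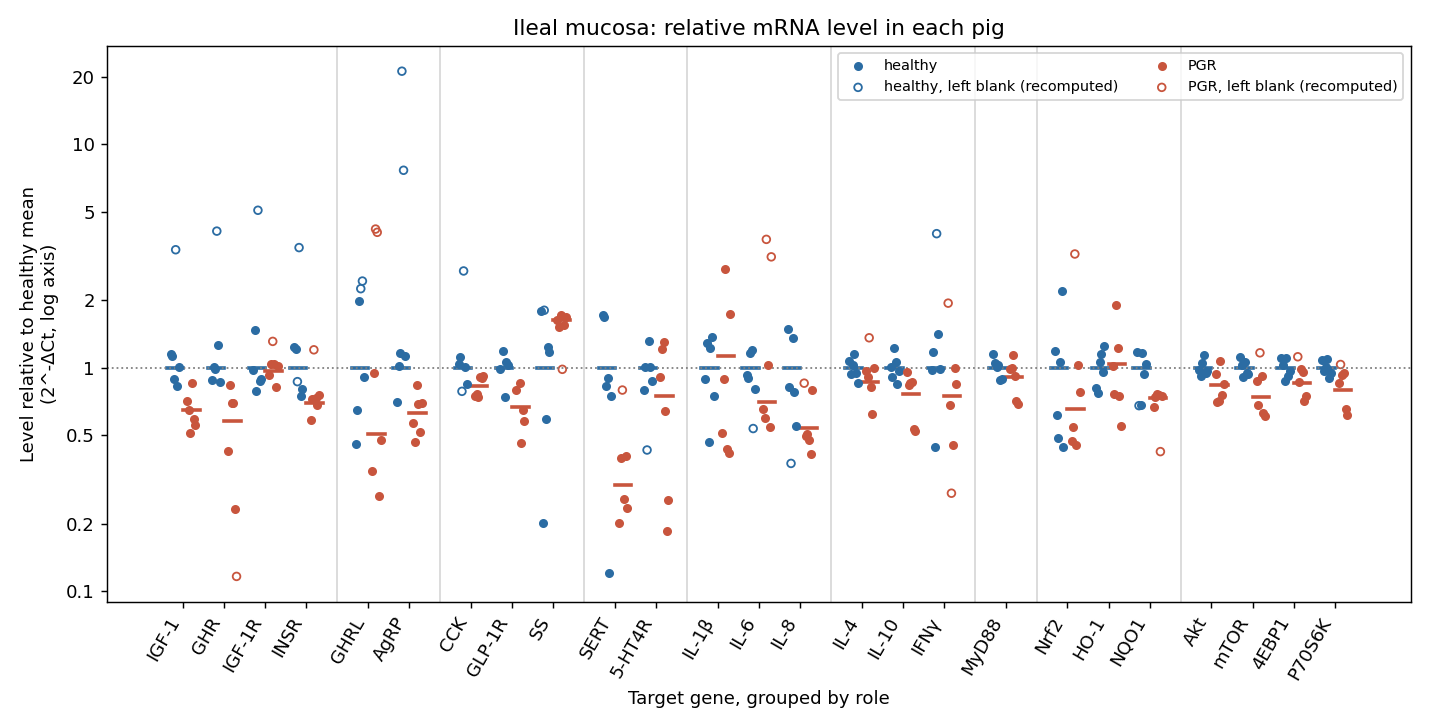
Level of each gene in each pig relative to the healthy mean, on a log axis, with genes grouped by role. Filled points are deposited values, open points are blank values recomputed from Ct, and bars are means of the deposited values; SERT has the lowest PGR mean, 0.298, and SS the highest, 1.63.

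In the growth axis, PGR pigs had lower mRNA levels of 3 of 4 genes relative to β-actin, IGF-1, GHR and INSR, against 13 of 25 (52%) over all genes. IGF-1 is the growth factor through which growth hormone acts locally. Its relative level was 0.824 to 1.15 in healthy pigs, with a median of 1.01 (n = 5), and 0.510 to 0.855 in PGR pigs, with a median of 0.618 (n = 6). A single PGR pig, pig 4, reached into the healthy range. On average PGR pigs had a level of 0.644 ± 0.124 (SD), a log2 change of −0.64 ± 0.14 (SE; two-sided exact permutation p = 0.00649, adjusted p = 0.0728). On Ct the IGF-1 level was 0.819 (exact p = 0.0693).

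GHR, the receptor that binds growth hormone, was the 1 gene of 25 (4%) whose groups did not overlap. Healthy pigs 1, 2, 3, 5 and 6 had levels of 0.885, 1.01, 0.985, 1.26 and 0.859. PGR pigs 1 to 5 had levels of 0.424, 0.836, 0.691, 0.691 and 0.234. PGR pigs 5 and 1 were lowest, and PGR pig 2 came close to the lowest healthy pig. In PGR pigs the mean was 0.575 ± 0.242 (SD, n = 5), a log2 change of −0.92 ± 0.35 (SE; exact permutation p = 0.00794, the smallest that 5 against 5 pigs allow, adjusted p = 0.0728). Both blank values of GHR lay farther out, at 4.09 in healthy pig 4 and 0.116 in PGR pig 6, and with them filled the level was 0.329 (exact p = 0.00216), or 0.499 with healthy pig 4 left out as well (exact p = 0.00433). On Ct the level was 0.717 (exact p = 0.206).

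INSR, the insulin receptor, was 1.24, 1.21, 0.747 and 0.801 in healthy pigs 1, 2, 5 and 6. It was 0.581, 0.722, 0.730, 0.678 and 0.754 in PGR pigs 1, 2, 4, 5 and 6. The healthy pigs formed a high pair and a low pair, and the low pair touched the PGR range. Averaged over pigs, the PGR level was 0.693 ± 0.0684 (SD, n = 5; exact p = 0.0159, adjusted p = 0.0728). Without any one of PGR pigs 1, 2, 4 or 5 the exact p was 0.0571, and with the blank values filled it was 0.0649. On Ct the INSR level was 0.863 (exact p = 0.0238), and with every Ct it turned to 1.07.

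IGF-1R, the receptor of IGF-1, had a relative level of 0.968 ± 0.0956 (SD, n = 5) in PGR pigs, which did not differ from 1.00 ± 0.274 (SD, n = 5) in healthy pigs beyond their spread (exact p = 0.905). Its level was 1.10 without healthy pig 2, 1.01 without PGR pig 5, 1.22 on Ct and 0.611 with the blank values filled (exact p = 0.589). The blank value of healthy pig 4 was 5.07, and with that pig also left out the filled PGR mean lay above the healthy mean.

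Of the appetite peptides, PGR pigs had a lower level of AgRP, which stimulates feeding in the hypothalamus. AgRP was 0.699, 1.02, 1.16 and 1.12 in healthy pigs 1, 2, 3 and 6. In PGR pigs it ran from 0.463 to 0.833, with a median of 0.626 (n = 6). PGR pig 3 exceeded the lowest healthy pig, and the others did not. PGR pigs averaged 0.626 ± 0.137 (SD), a log2 change of −0.68 ± 0.21 (SE; exact p = 0.00952, adjusted p = 0.0728). The AgRP Ct averaged 30.0 cycles in healthy and 31.2 cycles in PGR pigs (n = 6 each). The blank values of healthy pigs 4 and 5 were 21.2 and 7.65, and with them filled the level was 0.114 (exact p = 0.00433), or 0.268 with healthy pig 4 left out as well (exact p = 0.00433). On Ct the AgRP level was 0.832 (exact p = 0.348).

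GHRL, the precursor of the hunger hormone ghrelin, was 0.455, 0.648, 1.99 and 0.904 in healthy pigs 1, 2, 3 and 6. In PGR pigs 1, 2, 5 and 6 it was 0.343, 0.943, 0.265 and 0.472. The groups overlapped widely. The PGR mean of 0.506 ± 0.303 (SD, n = 4) was the second lowest of the panel and did not pass the test (exact p = 0.257). With the 4 blank values filled it turned to 1.18, and with every Ct to 1.80. On Ct it was 0.659.

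Of the satiety and enteroendocrine genes, PGR pigs had lower levels of CCK and GLP-1R and a higher level of SS relative to β-actin, and CCK turned to 1.02 on Ct. GLP-1R, the receptor of the incretin GLP-1, was 0.986, 1.19, 0.737, 1.06 and 1.02 in healthy pigs 1, 3, 4, 5 and 6. It was 0.797, 0.854, 0.462, 0.647 and 0.579 in PGR pigs of the same numbers. Healthy pig 4 lay within the PGR range and the other healthy pigs lay above it. The PGR mean was 0.668 ± 0.160 (SD, n = 5), a log2 change of −0.60 ± 0.20 (SE; exact p = 0.0238, adjusted p = 0.0728). On Ct the GLP-1R level was 0.908 (exact p = 0.548).

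CCK, a peptide released after meals that slows gastric emptying, was 1.03, 1.12, 1.01 and 0.842 in healthy pigs 1, 2, 5 and 6. In PGR pigs it ran from 0.740 to 0.915, with a median of 0.831 (n = 6). Healthy pig 6 lay among the PGR pigs. On average PGR pigs had a level of 0.828 ± 0.0868 (SD; exact p = 0.0381, adjusted p = 0.0897). Leaving out pigs in turn gave an exact p of 0.0595 without healthy pig 1 or 5, 0.0952 without healthy pig 2, and 0.0635 without PGR pig 1, 2 or 3. With the blank values filled the level was 0.663 (exact p = 0.0541). The rank-sum permutation p was 0.0667 and the limma p was 0.0732.

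SS encodes somatostatin, which inhibits the release of many gut hormones. Healthy pigs 1, 2, 4, 5 and 6 had levels of 1.79, 0.202, 0.587, 1.24 and 1.18. PGR pigs 1, 2, 3, 5 and 6 had levels of 1.64, 1.52, 1.73, 1.56 and 1.69. The PGR pigs were close together and high, while the healthy pigs were scattered from far below to above them. In PGR pigs the mean was 1.63 ± 0.0875 (SD, n = 5) against a healthy SD of 0.616, a log2 change of 1.04 ± 0.56 (SE; exact p = 0.0476, adjusted p = 0.0917).

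The higher SS level kept its direction on Ct, at 2.19 (exact p = 0.00794), and lost the threshold when single pigs were left out. Its level was 1.36 without healthy pig 2 (exact p = 0.0794) and 1.47 without healthy pig 4 (exact p = 0.0635). Without healthy pig 1 the level rose to 2.03 (exact p = 0.00794). The exact p was 0.0556 without healthy pig 5 or 6, 0.103 without PGR pig 1 or 6, 0.0952 without PGR pig 2 or 5, and 0.111 without PGR pig 3. With the blank values of healthy pig 3 (1.81) and PGR pig 4 (0.983) filled, it was 1.34 (exact p = 0.206). The rank-sum permutation p was 0.151, the limma p was 0.0619, and with 1 β-actin set the exact p was 0.214.

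SERT is the transporter that takes serotonin up into epithelial cells and ends its signal. In the deposited values it had the lowest PGR mean of the 25 genes. In healthy pigs SERT ran from 0.120 to 1.72, with a median of 0.863 (n = 6). In PGR pigs 1, 2, 4, 5 and 6 it was 0.203, 0.392, 0.258, 0.403 and 0.235. Healthy pig 5, at 0.120, lay below every PGR pig, and the other healthy pigs lay above them all. Averaged over pigs, the PGR level was 0.298 ± 0.0929 (SD), a log2 change of −1.41 ± 0.61 (SE; exact p = 0.0346, adjusted p = 0.0858). Leaving out pigs in turn gave an exact p of 0.0762 without PGR pig 1, 0.0619 without PGR pig 4 and 0.0667 without PGR pig 6. The SERT call also ended on the log2 scale (exact p = 0.0671), by rank-sum test (permutation p = 0.0823) and with 1 β-actin set (exact p = 0.0671). On Ct the SERT level was 0.451 (exact p = 0.141). The blank value of PGR pig 3 came to 0.794, within the healthy range. With it filled the SERT level was 0.381 (exact p = 0.0476), and the filled levels of AgRP (0.114) and GHR (0.329) were lower.

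The serotonin receptor 5-HT4R, which promotes motility, averaged 0.749 ± 0.472 (SD, n = 6) in PGR pigs and did not pass the test (exact p = 0.312). In healthy pigs 1, 2, 4, 5 and 6 it was 0.791, 1.00, 1.32, 1.01 and 0.872. In PGR pigs it ran from 0.186 to 1.30, with a median of 0.773. PGR pigs 5 and 6 were far below, and PGR pigs 2 and 3 were as high as the healthy pigs. The level turned to 1.16 on Ct.

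Among the pro-inflammatory cytokines, PGR pigs had a lower level of IL-8, which attracts neutrophils. IL-8 was 1.49, 0.818, 1.36, 0.781 and 0.548 in healthy pigs 1, 2, 4, 5 and 6. It was 0.495, 0.503, 0.473, 0.411 and 0.795 in PGR pigs 2 to 6. PGR pig 6 was high for its group and lay among the lower healthy pigs. PGR pigs averaged 0.535 ± 0.150 (SD, n = 5), a log2 change of −0.84 ± 0.31 (SE; exact p = 0.0238, adjusted p = 0.0728). The exact p was 0.0556 without healthy pig 1 or 4 or without PGR pig 2, 3 or 4, and 0.0635 without PGR pig 5. On Ct the IL-8 level was 0.405 (exact p = 0.0317), with every Ct it was 0.510 (exact p = 0.0606), and with the blank values filled it was 0.657 (exact p = 0.182). With 1 β-actin set for every gene it was 0.280 (exact p = 0.00794), and 0.354 with the blank values recomputed as well (exact p = 0.00866).

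IL-6, a cytokine of the acute phase, was 0.704 ± 0.223 (SD, n = 4) in PGR pigs (exact p = 0.0635), and 0.594 without PGR pig 4 (exact p = 0.0179). With the 3 blank values filled it turned to 1.75, and with every Ct to 2.75, while on Ct it was 1.00. IL-1β, an early inflammatory signal, was 1.13 ± 0.946 (SD, n = 6) in PGR pigs (exact p = 0.784). PGR pigs 3 and 6 had IL-1β levels of 2.76 and 1.74, above all healthy pigs, and the other PGR pigs lay at 0.414 to 0.892. Its mean was 0.798 without PGR pig 3, 0.839 on Ct and 0.608 with 1 β-actin set.

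Among the regulatory and T cell cytokines, PGR pigs had a lower level of IL-10, which restrains inflammation, relative to β-actin, and the level turned to 1.08 on Ct. IL-10 ran from 0.843 to 1.22 in healthy pigs, with a median of 0.984 (n = 6). In PGR pigs it ran from 0.520 to 0.957, with a median of 0.844 (n = 6). PGR pigs 5 and 6 were far below, PGR pig 2 was just below, and the others lay within the healthy range. The PGR mean was 0.759 ± 0.186 (SD; exact p = 0.0216, adjusted p = 0.0728), and the exact p was 0.0584 without healthy pig 3.

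The T cell cytokine IFNγ was 0.745 ± 0.235 (SD, n = 4) in PGR pigs (exact p = 0.262). The IL-4 assay gave 0.864 ± 0.152 (SD, n = 5; exact p = 0.110). MyD88, the adaptor of Toll-like receptors, gave 0.906 ± 0.176 (SD, n = 6; exact p = 0.277). IFNγ was 0.895 on Ct and turned to 1.08 with every Ct. On Ct, without correction for template amount, the IL-4 assay turned to 1.28 (exact p = 0.0195) and MyD88 to 1.30. MyD88 was the 1 gene that passed the adjustment on Ct (exact p = 0.00216, adjusted p = 0.0375), with a Ct of 20.6 ± 0.162 cycles in PGR and 21.0 ± 0.142 cycles in healthy pigs (SD, n = 6).

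Of the antioxidant genes, PGR pigs had a lower level of NQO1, a quinone-detoxifying enzyme, relative to β-actin, and the level turned to 1.04 on Ct. NQO1 was 1.18, 0.682, 1.16, 0.939 and 1.04 in healthy pigs 1, 3, 4, 5 and 6. It was 0.667, 0.738, 0.764, 0.752 and 0.743 in PGR pigs 1, 2, 3, 4 and 6. The PGR pigs were close together, and healthy pig 3 was the one healthy pig among them. On average PGR pigs had a level of 0.733 ± 0.0382 (SD, n = 5), a log2 change of −0.42 ± 0.15 (SE; exact p = 0.0397, adjusted p = 0.0897). Leaving out pigs in turn gave an exact p of 0.0794 without PGR pig 1, 0.0635 without PGR pig 2, and 0.0556 without PGR pig 3, 4 or 6. By rank-sum test the permutation p was 0.0952.

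Nrf2, the transcription factor that induces NQO1 and HO-1, was 0.654 ± 0.246 (SD, n = 5) in PGR pigs against a healthy SD of 0.670 (exact p = 0.338). It turned to 1.08 with the blank value of PGR pig 3 filled and to 1.53 with every Ct, which adds the same blank value, and was 0.976 on Ct. HO-1, which degrades heme, was 1.04 ± 0.492 (SD, n = 6) in PGR pigs (exact p = 0.905). PGR pig 3 had the highest HO-1 level, 1.92, and without that pig the mean was 0.860. It was 0.999, 0.990 and 0.998 without healthy pig 1, healthy pig 2 and PGR pig 4.

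In the Akt-mTOR pathway, PGR pigs had lower levels of 3 of 4 genes relative to β-actin, Akt, mTOR and P70S6K, against 13 of 25 (52%) over all genes, and all 4 turned above 1 on Ct. mTOR, the kinase at the centre of the pathway, ran from 0.908 to 1.12 in healthy pigs, with a median of 0.987 (n = 6). It was 0.875, 0.680, 0.921, 0.628 and 0.605 in PGR pigs 1, 2, 4, 5 and 6. PGR pig 4 alone reached the healthy range. In PGR pigs the mean was 0.742 ± 0.146 (SD), a log2 change of −0.45 ± 0.13 (SE; exact p = 0.00433, adjusted p = 0.0728). PGR pig 3, whose value was blank, came to 1.17, and with it filled the level was 0.812 (exact p = 0.0823).

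P70S6K, a kinase that mTOR activates, ran from 0.902 to 1.09 in healthy pigs, with a median of 0.989 (n = 6). It was 0.851, 0.927, 0.942, 0.651 and 0.613 in PGR pigs 1, 3, 4, 5 and 6. PGR pigs 3 and 4 lay within the healthy range. Averaged over pigs, the PGR level was 0.797 ± 0.155 (SD; exact p = 0.0152, adjusted p = 0.0728), and with the blank value of PGR pig 2 filled the exact p was 0.0541. On Ct, which is not corrected for template amount, it was 1.17, in the other direction (exact p = 0.00866). With every Ct it was 1.19 and passed the adjustment (exact p = 0.00216, adjusted p = 0.0375), with a Ct of 20.8 ± 0.0896 cycles in PGR and 21.0 ± 0.126 cycles in healthy pigs (SD, n = 6).

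Akt ran from 0.922 to 1.14 in healthy pigs, with a median of 0.973, and from 0.704 to 1.07 in PGR pigs, with a median of 0.800 (n = 6 each). PGR pigs 1 and 4 lay within the healthy range. PGR pigs averaged 0.837 ± 0.146 (SD; exact p = 0.0455, adjusted p = 0.0917). The exact p was 0.0584 without healthy pig 1, 0.0736 without healthy pig 3, 0.0844 without healthy pig 4 and 0.0563 without healthy pig 6. It was 0.0844 without PGR pig 2 or 3, 0.0801 without PGR pig 5 and 0.0628 without PGR pig 6. By rank-sum test the permutation p was 0.0649, and the limma p was 0.0556. On Ct the Akt level was 1.22 (exact p = 0.0844).

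4EBP1, the repressor of translation that mTOR switches off, was 0.852 ± 0.121 (SD, n = 5) in PGR pigs (exact p = 0.0628). Leaving out pigs in turn gave an exact p of 0.0397 without healthy pig 3, 0.0333 without PGR pig 3 and 0.0476 without PGR pig 4. On Ct it was 1.24 (exact p = 0.0173). The mTOR level on Ct was 1.07 (exact p = 0.405).

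**Figure D3:**
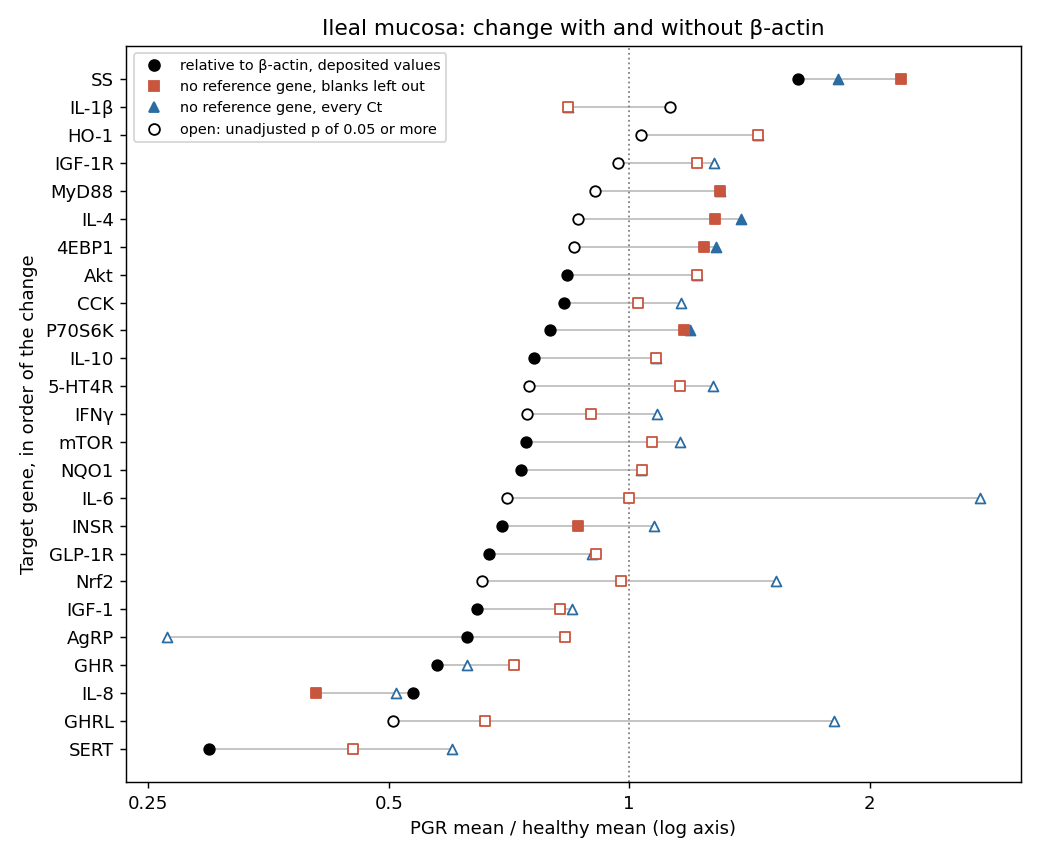
PGR mean over healthy mean of each ileal gene, on a log axis, for deposited ratios to β-actin (circles), for Ct without a reference and with blank values left out (squares) and for every Ct (triangles). Filled symbols have an unadjusted p under 0.05; relative to β-actin 22 of 25 genes lie below 1, on Ct 11 do and with every Ct 7 do.

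The spread between pigs was described next. As a coefficient of variation in healthy pigs, the relative level varied least for P70S6K (7.70%), Akt (7.91%) and mTOR (8.10%). It varied most for GHRL (68.7%), Nrf2 (67.0%), SS (61.6%) and SERT (61.2%). In PGR pigs, NQO1 (5.22%) and SS (5.38%) varied least, and IL-1β (84.1%) and 5-HT4R (63.0%) most. The median coefficient of the Akt-mTOR genes was 8.0% in healthy and 18.4% in PGR pigs, and MyD88 (10.1%) and the IL-4 assay (10.8%) were close to 4EBP1 (9.98%) in healthy pigs. This order is that of the deposited ratios to β-actin, and it changed with the blank values filled. The healthy SD of the relative level was then highest for AgRP (1.49) and IGF-1R (1.00), against 0.670 for Nrf2 and 0.606 for GHRL. In PGR pigs the filled SD was 0.139 for NQO1 and 0.242 for SS. On Ct, the SD in healthy pigs was lowest for IL-6 (0.106 cycles), the IL-4 assay (0.113 cycles) and INSR (0.117 cycles), and that of mTOR was 0.202 cycles against 0.194 cycles in PGR pigs.

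The SD was smaller in PGR pigs for 13 of 25 genes. By a two-sided exact permutation test of the deviations from the group median, 3 of 25 genes (12%) passed an unadjusted p under 0.05, and 0 passed after adjustment over 51 comparisons (smallest adjusted p = 0.405). INSR had a smaller spread in PGR pigs, with an SD of 0.0684 against 0.262 (exact p = 0.0159, n = 5 and 4). NQO1 also had a smaller spread in PGR pigs, 0.0382 against 0.202 (exact p = 0.0476, n = 5 each). 5-HT4R had a larger spread in PGR pigs, 0.472 against 0.202 (exact p = 0.0498, n = 6 and 5). Because blank values lay at the ends of their groups, these spreads depended on them. With the blank values filled, INSR (exact p = 0.154), NQO1 (exact p = 0.136) and 5-HT4R (exact p = 0.117) no longer passed. In that setting mTOR alone passed, with an SD of 0.217 in PGR and 0.0810 in healthy pigs (exact p = 0.0108, n = 6 each).

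Correlation between genes was computed over pigs, as the correlation of log2 levels after each group mean was removed. Of 300 gene pairs, 24 (8%) passed an unadjusted permutation p under 0.05, 17 positive and 7 negative, and 0 passed after adjustment over the 300 pairs (0%). The median r was 0.114. With the blank values filled, 38 of the passing pairs were positive and 2 negative, with a median r of 0.253. With every Ct, 35 were positive and 1 was negative, with a median r of 0.248. Pairs that shared β-actin readings passed in 14 of 111 cases, with a median r of 0.170. Pairs with different readings passed in 10 of 189 cases, with a median r of 0.108. On Ct, the same 2 kinds of pair passed in 14 of 111 and 19 of 189 cases, with a median r of 0.185 and 0.199. Shared readings can enter both genes of a pair, and their part was not tested. On Ct, the template amount of a pig can enter all its genes, and its part was not tested either.

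The highest correlations among pairs with at least 10 pigs were within the set of genes that holds the Akt-mTOR pathway. For mTOR and P70S6K, r was 0.940 (permutation p = 0.0105, adjusted p = 0.351) and rho was 0.903 (permutation p = 0.0387, n = 10). PGR pigs 4 and 6 were the farthest from the median of mTOR. Without them, and with group means taken again, r was 0.876 (permutation p = 0.0682, n = 8). The call was lost while r stayed high, and whether those pigs or the smaller number of pigs ended it was not tested. With the blank values filled, r was 0.624 (permutation p = 0.153). For MyD88 and P70S6K, r was 0.898 (permutation p = 0.00463, adjusted p = 0.278) and rho was 0.845 (permutation p = 0.0144, n = 11). Without PGR pigs 5 and 6, and with group means taken again, this r fell to 0.631 (permutation p = 0.0946, n = 9).

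mTOR and 4EBP1 gave an r of 0.887 (permutation p = 0.00068, adjusted p = 0.103) and a rho of 0.924 (permutation p = 0.00068, n = 10). Without healthy pig 1 and PGR pig 4, the farthest from the median of mTOR, the r was 0.924 (permutation p = 0.00855). This relation did not rest on those pigs, and pigs far out in 4EBP1 were not chosen in the same way. Within the 6 healthy pigs alone, r was 0.955 (exact p = 0.0111). With every Ct, r was 0.754 (permutation p = 0.00477).

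The 3 lowest correlations of such pairs did not pass, although 7 negative pairs passed the unadjusted threshold among all 300. For GLP-1R and Akt, r was −0.641 (permutation p = 0.0913) and rho was −0.491 (permutation p = 0.246, n = 10), and r was −0.0236 without healthy pig 4 and PGR pig 4. For CCK and 5-HT4R, r was −0.608 (permutation p = 0.0721) and rho was −0.491 (permutation p = 0.141, n = 10), and r was −0.736 (permutation p = 0.168) without healthy pig 6 and PGR pig 3. For CCK and HO-1, r was −0.592 (permutation p = 0.0757) and rho was −0.648 (permutation p = 0.0474, n = 10), and r was −0.282 without the same pigs. The adjusted p of r was 0.655 for all 3 pairs. Their direction depended on the setting. CCK and 5-HT4R turned to an r of 0.119 with the blank values filled and 0.260 with every Ct. Within groups, this r was 0.340 in the 4 healthy pigs (exact p = 0.75) and −0.848 in the 6 PGR pigs (exact p = 0.0514). CCK and HO-1 turned to 0.254 on Ct and 0.176 with every Ct, and GLP-1R and Akt to 0.236 with the mean target Ct as reference. These pairs stayed negative within groups. CCK and HO-1 gave −0.976 in the 4 healthy pigs (exact p = 0.0417) and −0.518 in the 6 PGR pigs (exact p = 0.303). GLP-1R and Akt gave −0.617 in healthy and −0.666 in PGR pigs (n = 5 each).

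On Ct, 33 of 300 pairs passed the unadjusted threshold, 30 of them positive, and 3 passed the adjustment. Template amount, for which Ct is not corrected, can raise r between any 2 genes, and its part in these counts was not tested. The 3 pairs that passed the adjustment were named after their values were seen. They were mTOR with P70S6K (r = 0.956, rho = 0.927, n = 10), NQO1 with 4EBP1 (r = 0.935, rho = 0.900, n = 9) and 5-HT4R with P70S6K (r = 0.821, rho = 0.842, n = 10), each with an adjusted permutation p of 0.0320. Without the 2 outermost pigs, r was 0.886 (permutation p = 0.0151), 0.924 (permutation p = 0.00709) and 0.689 (permutation p = 0.0752). With every Ct included, none of the 3 passed the adjustment, and r was 0.485, 0.591 and 0.818. In 10 pairs the correlation passed the unadjusted threshold with the same sign in levels and in Ct.

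The change in the ileal mucosa was finally compared with that in the jejunal mucosa of the same pigs, by permuting the growth groups on the ileal minus jejunal log2 level. The change differed between the tissues for 2 of 25 genes (8%) at an unadjusted p under 0.05, and for 0 after adjustment over 25 genes. The log2 change of SERT in the ileum differed from that in the jejunum by −1.44 (exact p = 0.0238, adjusted p = 0.298, n = 5 healthy and 4 PGR pigs). Akt differed by −0.48 (exact p = 0.0108, adjusted p = 0.271, n = 5 and 6), with a relative level of 0.837 in the ileum and 1.16 in the jejunum of PGR pigs. With the blank values filled, the differences were −0.51 for SERT (exact p = 0.563) and −0.34 for Akt (exact p = 0.130).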

How the data were processed

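Total RNA from scraped mucosa was assayed with SYBR Green RT-PCR in triplicate by the authors, who deposited the mean Ct of each target gene, in cycles on a reversed log2 scale. The authors also deposited the ratio of each gene to β-actin (2^−ΔCt), with blank values. A last table, of fold values of PGR over healthy pigs, holds the authors' own comparison and was not used. Columns were assigned by sample titles, and 0 columns had no sample. Ratios were divided by the healthy mean, and blank values stayed missing. The β-actin Ct was recovered as Ct plus log2 of the ratio. Two-sided exact permutation tests compared the means, with Benjamini-Hochberg adjustment over 52 gene and tissue comparisons. Correlations used 100000 permutations within groups. A Ct has no counting depth; errors are between pigs. The 25 genes are all targets other than TLR4, and values of single pigs are given for some genes and ranges for others. Members, lists and tests were chosen with earlier results of these data known. Alternatives changed the scale, test, reference, β-actin set, blank values, a filter at mean Ct 30, the replicate block and single pigs. Procedures were tested on simulated data. RefSeq names matched 24 of 25 accessions, and no build is given in the sources used here. Tests ran in scipy 1.17.1 and numpy 2.4.6 under Python 3.11.15, tables in pandas 2.3.3, limma 3.58.1 in R 4.3.3, and plots in matplotlib 3.10.9.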

Additional observations from a re-analysis of the deposited data

Results flagged for a closer look

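In 58 groups of pigs, 5 held a value far from the rest, and chance alone sets apart about 1 in 20 such groups. Healthy pig 2 had an IGF-1R level of 1.48, with the next healthy pig at 0.972. PGR pig 6 had an IL-8 level of 0.795, with the next PGR pig at 0.503. PGR pig 1 had an NQO1 level of 0.667, below the other PGR pigs, the nearest of which was at 0.738. Healthy pig 4 had high β-actin Ct values, 15.6 cycles in the readings behind IGF-1 (next 13.7) and 16.1 cycles in those behind IL-8 (next 14.2).

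The change in PGR pigs differed between ileal and jejunal mucosa for SERT, by a log2 difference of −1.44 (exact permutation p = 0.0238), and for Akt, by −0.48 (exact permutation p = 0.0108); neither passed the adjustment.

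Among values that the authors left blank, 9 of PGR pigs were above every kept healthy value, as were 11 of healthy pigs. Those 11 held all 8 blank values of healthy pig 4, recomputed with its high β-actin Ct of 15.6 cycles. GHRL was 4.17 in PGR pig 3 and 4.04 in PGR pig 4, against a healthy maximum of 1.99. IL-6 was 3.75 in PGR pig 3 and 3.13 in PGR pig 6, against 1.20. PGR pig 3 also had 3.23 for Nrf2 (healthy maximum 2.22), 1.36 for the IL-4 assay (1.16) and 1.17 for mTOR (1.12). PGR pig 1 had 1.94 for IFNγ (healthy maximum 1.42) and 1.12 for 4EBP1 (1.11). The rule behind the blanks was not tested.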

How the results depend on the processing

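Relative to β-actin, the 13 genes lower in PGR pigs stayed below 1 on the log2 scale, by rank-sum test, limma, 1 β-actin set, filled blanks and with each pig left out; their calls did not all remain. The unadjusted count of 14 was 9 by rank-sum test, 8 with blanks filled, 7 on Ct without a reference and with blanks left out (2 lower, 5 higher) and 5 with the mean target Ct as reference (1 lower, 4 higher). The settings added after the values were seen gave 9 (blanks recomputed, 1 β-actin set), 5 (every Ct, no reference; 0 lower) and 5 (blanks filled, healthy pig 4 left out). It ran from 8 to 13 with 1 pig left out. The adjusted count of 0 was 1 with limma, 1 without a reference (MyD88) and 2 with every Ct. The count of 22 means below healthy was 11 without a reference, 11 with the mean Ct and 7 with every Ct. The median log2 change of −0.43 was 0.040, 0.024 and 0.20 in those settings and −0.25 with blanks filled and healthy pig 4 left out; with 1 pig left out it ran from −0.48 to −0.37. The 3 genes with a difference in spread became 2 on the log2 scale, 1 with blanks filled, 0 on Ct and 2 with every Ct (IL-6 and the IL-4 assay, both larger in PGR pigs); the 24 correlated pairs became 40 with blanks filled; the 2 tissue differences became 0 with blanks filled and 1 on Ct (HO-1). The mean target Ct as reference removes any change shared by all genes, so its counts and median cannot show such a change. Ct without a reference is not corrected for the amount of template. The causes were not tested.

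The pigs were pair-matched by litter, but the sample labels do not say whether the pig numbers follow those pairs. Same-numbered pigs did not all correlate above 0.1, so they were not treated as pairs: 4 of 6 pairs correlated above 0.1 (−0.194 to 0.259), and 2 healthy pigs correlated best with their own number. With the replicate block, limma called 8 genes, all among the 14, and 2 after adjustment, IGF-1 and GLP-1R; INSR, CCK, SS, SERT, IL-8 and NQO1 were not called.

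Relative levels of single genes changed side as follows. On the log2 scale, with limma and with the replicate block, HO-1 was 0.967 and IL-1β 0.912. With 1 β-actin set, IL-1β was 0.608. With blanks filled, GHRL was 1.18, IL-6 1.75 and Nrf2 1.08; with healthy pig 4 also left out they were 1.32, 1.86 and 1.10, and IGF-1R was 1.03. Recomputed with 1 set, GHRL was 1.41, IL-6 1.75, Nrf2 1.08 and IL-1β 0.608. Without a reference and with blanks left out, IGF-1R was 1.22, CCK 1.02, 5-HT4R 1.16, IL-6 1.00, the IL-4 assay 1.28, IL-10 1.08, MyD88 1.30, NQO1 1.04, Akt 1.22, mTOR 1.07, 4EBP1 1.24, P70S6K 1.17 and IL-1β 0.839. With the mean Ct as reference, IGF-1R was 1.31, CCK 1.09, 5-HT4R 1.12, the IL-4 assay 1.30, IL-10 1.02, IFNγ 1.04, MyD88 1.22, Nrf2 1.09, Akt 1.18, mTOR 1.10, 4EBP1 1.18, P70S6K 1.09 and IL-1β 0.712. With every Ct, IGF-1R was 1.28, INSR 1.07, GHRL 1.80, CCK 1.16, 5-HT4R 1.27, IL-6 2.75, the IL-4 assay 1.38, IL-10 1.08, IFNγ 1.08, MyD88 1.30, Nrf2 1.53, NQO1 1.04, Akt 1.22, mTOR 1.16, 4EBP1 1.29, P70S6K 1.19 and IL-1β 0.839. With 1 pig left out, IGF-1R ran from 0.920 to 1.10, IL-1β from 0.798 to 1.27 and HO-1 from 0.860 to 1.13.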

Other observations

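In healthy pig 1, GHRL and AgRP had the same Ct, 31.57 cycles, and the same level, 0.00431 per 1000 of β-actin. In the 12 pigs, 3 other pairs of genes shared a Ct in 1 pig. The median log2 level over the genes ran from −0.08 to 0.22 in healthy pigs and from −0.64 to −0.22 in PGR pigs relative to the healthy mean. The groups did not overlap on this summary, which also holds the β-actin difference.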
